A study of Mus musculus with 3 samples.

Results

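Myeloid cells were followed in 3 single-cell libraries of the E12.5 mouse fetal ovary. A kept cell was a barcode with 200 to 9000 genes detected and at most 10% of its unique molecular identifiers (UMIs, each counting 1 captured RNA molecule) from mitochondrial genes. A kept cell was called myeloid when it held at least 1 UMI each of Tyrobp and Fcer1g, which encode the adaptor proteins DAP12 and FcR gamma that pass signals from many receptors of myeloid cells. In all, 138 of 28971 kept cells met this rule. Among them, the cells with UMIs of at least 2 of C1qa, C1qb and C1qc, the genes for the chains of complement protein C1q, are called C1q cells. The cells with at least 3 UMIs of at least 2 of S100a8, S100a9, Camp and Ngp, genes for proteins stored in neutrophils, are called granule-gene cells. The remaining myeloid cells are called other members, and all kept cells outside the rule are called non-member cells.

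The libraries were 3 cryopreserved lots (26, 29 and 30) of fetal ovarian somatic cells (FOSCs), sequenced with the 10X 3′ method to describe this cell preparation. Each lot pooled the ovaries of the embryos of 10 time-mated CD1 mice, without the mesonephros. The tissue was dissociated with trypsin, germ cells carrying SSEA1 or CD31 were removed on magnetic columns, and the flow-through cells were frozen and later thawed for capture. All 3 lots had the same strain, age and handling, so there was 1 group with 3 samples and no treatment to compare. CD31 is also found on endothelial cells and on many blood cells, so the proportion of myeloid cells was measured after a step that could have removed some of them.

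Macrophages are the main immune cells of most fetal organs, where they arise from yolk sac and fetal liver progenitors, depend on the receptor Csf1r, and take up dying cells. Neutrophils develop in the fetal liver and bone marrow and fill granules in a fixed order, with Mpo, Elane and Prtn3 in the primary granules and Camp, Ngp, Ltf and Lcn2 in the later ones. Mast cells and basophils are rarer myeloid cells that store proteases such as Cpa3, Cma1 and Mcpt8.

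The genes of the rule lie in different parts of the mouse genome (GRCm38). C1qa (chr4:136895917-136898803), C1qc (chr4:136889804-136893065) and C1qb (chr4:136880129-136886187) stood next to each other on the minus strand, and S100a8 (chr3:90668978-90670035, plus strand) lay close to S100a9 (chr3:90692632-90695721, minus strand). Tyrobp was at chr7:30413760-30417585 on the plus strand and Fcer1g at chr1:171229572-171234365 on the minus strand. The 250 bases before the RefSeq start (build GRCm38.p6) are shown for C1qb, S100a9 and Cpa3, since each marks a different set of the myeloid cells described here. Bases in capitals match 1 of 2 motifs, searched on both strands, that are bound by factors of myeloid cells: GAGGAA, the core bound by PU.1 (encoded by Spi1), and TTNNGNAA, bound by C/EBP factors (N is any base).
C1qb, chr4:136886201-136886450, minus strand: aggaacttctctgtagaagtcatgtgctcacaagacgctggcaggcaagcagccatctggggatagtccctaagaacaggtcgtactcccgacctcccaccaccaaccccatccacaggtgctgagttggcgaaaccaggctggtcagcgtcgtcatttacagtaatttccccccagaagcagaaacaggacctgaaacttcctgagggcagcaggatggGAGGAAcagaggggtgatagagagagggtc
S100a9, chr3:90695722-90695971, minus strand: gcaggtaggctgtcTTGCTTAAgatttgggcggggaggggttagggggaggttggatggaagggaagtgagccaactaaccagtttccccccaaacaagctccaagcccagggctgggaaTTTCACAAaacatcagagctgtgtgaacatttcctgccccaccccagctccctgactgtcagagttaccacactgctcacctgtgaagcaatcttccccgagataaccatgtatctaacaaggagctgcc
Cpa3, chr3:20242182-20242431, minus strand: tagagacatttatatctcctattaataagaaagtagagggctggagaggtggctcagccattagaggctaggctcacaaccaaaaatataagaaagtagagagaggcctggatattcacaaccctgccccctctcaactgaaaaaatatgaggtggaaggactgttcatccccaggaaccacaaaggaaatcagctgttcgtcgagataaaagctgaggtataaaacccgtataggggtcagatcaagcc
The C1qb window held 1 match to the PU.1 core, 30 bases before the start, and no match to the C/EBP motif. The S100a9 window held 2 matches to the C/EBP motif, both on the opposite strand, at 236 and 130 bases before the start, and none to the PU.1 core. The Cpa3 window held neither. Of 32851 promoter windows of this length, 23.3% held the PU.1 core, 36.8% the C/EBP motif and 8.87% both, so such matches are common and are given as a description only.

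Lots 26, 29 and 30 had 9763, 8567 and 10773 barcodes with 126680758, 87494974 and 141920060 UMIs, and 9711, 8553 and 10707 barcodes were kept. The kept cells had a median of 11126, 8949 and 11595 UMIs. Pairs of lots shared between 20 and 30 barcodes by sequence, and no shared barcode was myeloid in both lots of a pair. The doublet caller Scrublet called 1548 of the kept cells (5.34%), among them 20 C1q cells, 4 other members and none of the granule-gene cells. The called cells were 22%, 7.14% and 21.6% of the C1q cells of lots 26, 29 and 30, a larger share than of all kept cells. Without them, the UMIs of the C1q cells fell from 885621, 149315 and 595999 to 598506, 125386 and 290667.

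Lot 26 held the most myeloid cells and lot 29 the fewest. There were 74 in lot 26 (0.762% of kept cells, 95% interval 0.599 to 0.956), 19 in lot 29 (0.222%, 0.134 to 0.347) and 45 in lot 30 (0.420%, 0.307 to 0.562), a mean of 0.468% ± 0.273 (SD, n = 3 lots). The interval of lot 26 did not overlap those of lots 29 and 30. These intervals are exact Clopper-Pearson intervals that cover counting error only, and with 1 library per lot a difference between lots cannot be told apart from a difference between libraries.

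C1q cells made up most of the myeloid cells in every lot. They numbered 50, 14 and 37 in lots 26, 29 and 30, which was 67.6% (55.7 to 78.0), 73.7% (48.8 to 90.9) and 82.2% (67.9 to 92.0) of the myeloid cells, a mean of 74.5% ± 7.36 (SD, n = 3 lots). The 3 intervals overlapped, so the lots could not be ordered by this share at this depth. Granule-gene cells were rare, with 2 in lot 26, 2 in lot 30 and 0 of 8553 kept cells in lot 29. The exact upper limit for lot 29 was 0.0431%, and the limit of 3 counts used for a count of 0 was a share of 0.0351%. The other members numbered 22, 5 and 6, or 29.7%, 26.3% and 13.3% of the myeloid cells. No cell met both the C1q and the granule rule.

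**Figure D1:**
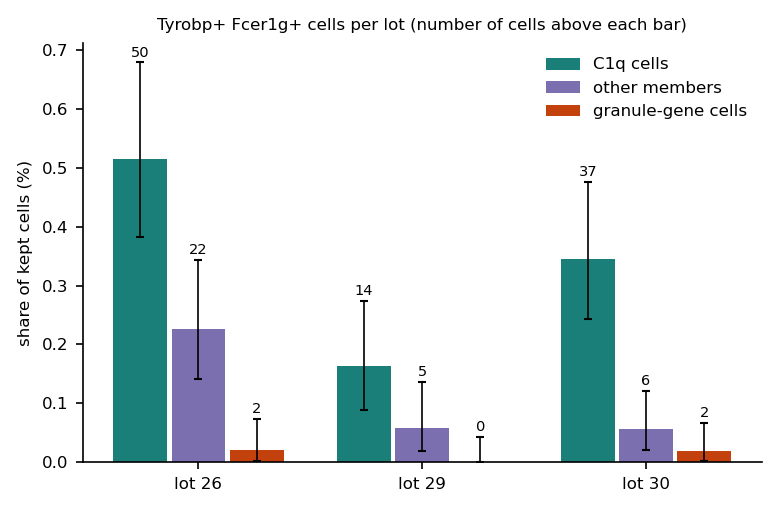
Share of kept cells in percent (y axis) in lots 26, 29 and 30 (x axis) for C1q cells, other members and granule-gene cells, with exact 95% intervals as error bars and the number of cells above each bar. The C1q cells are the largest set in each lot (50, 14 and 37 cells), and lot 29 has no granule-gene cell.

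The rule cut through few cells on the C1q side. Of the 101 C1q cells, 96 held UMIs of all 3 C1q genes and 5 held 2 of them, while only 2 other members held a UMI of 1 C1q gene. The myeloid gate itself was less sharp. Of the members, 21 had 1 UMI of Tyrobp or of Fcer1g and 5 had 1 UMI of each, and 251 kept cells held Tyrobp without Fcer1g and 125 Fcer1g without Tyrobp. A further 17 non-member cells (7, 4 and 6 by lot) held at least 2 C1q genes, and none passed the granule rule. The other members nearest to the granule rule were a cell of lot 26 with 10 UMIs of S100a8 and a cell of lot 30 with 7.

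The genes that chose the cells are given as levels, with no test. Per C1q cell, the median (lowest to highest) was 21 (1 to 58) UMIs of Tyrobp, 10 (1 to 48) of Fcer1g, 16 (0 to 79) of C1qa, 19 (1 to 65) of C1qb and 12 (0 to 51) of C1qc. The members held 89.0%, 90.1% and 91.3% of all Tyrobp UMIs of the kept cells of lots 26, 29 and 30, and 90.0%, 89.3% and 90.1% of those of C1qa. The rest lay as scattered UMIs in non-member cells, of which 0.975% held a C1qa UMI in lot 26. The granule genes were held by far fewer cells. In lot 26, 2 granule-gene cells held 4646 of 4841 S100a8 UMIs (96.0%), and in lot 30 another 2 held 6654 of 6965 (95.5%). A UMI of S100a8 was found in 1.83% and 2.78% of the non-member cells of lots 26 and 30, at most 2 in any cell, so scattered S100a8 UMIs lay in many more cells than the 4 that passed the rule. S100a8 was not listed in the table of lot 29.

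**Figure D2:**
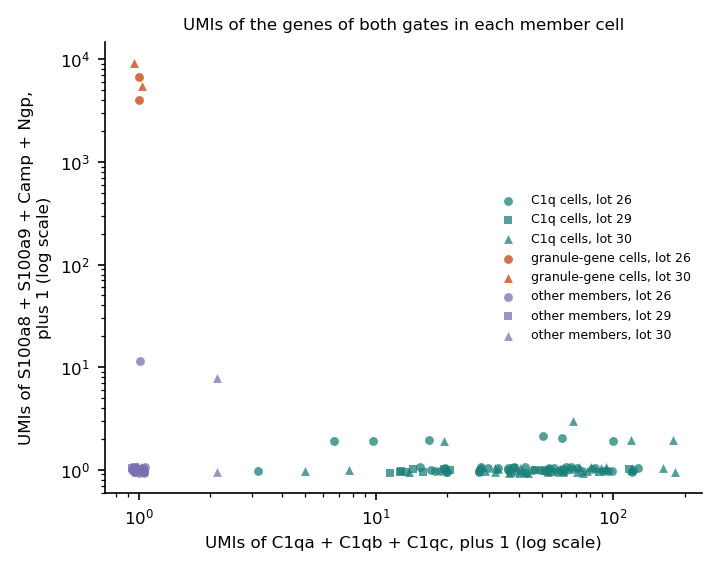
Summed UMIs per cell of C1qa, C1qb and C1qc (x axis) against those of S100a8, S100a9, Camp and Ngp (y axis) for the 138 myeloid cells, with 1 added, log axes, a slight random shift of the points, color for the set and shape for the lot. The 101 C1q cells spread along the x axis, the 4 granule-gene cells stand alone at the top left, and the 33 other members lie near the origin apart from the cells with 10 and 7 UMIs of S100a8.

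The C1q cells carried the markers of macrophages. Of 101 cells, 99 held a UMI of Csf1r, the receptor for the macrophage growth factor CSF1, 98 of Mrc1, the mannose receptor, and 95 of Cx3cr1, a chemokine receptor of tissue macrophages and microglia, and 100 held at least 1 of these. The corresponding shares of non-member cells were 0.687%, 0.763% and 0.368%. To compare levels, the UMIs of the C1q cells and of the non-member cells were summed in each lot. Levels are given as CPM, the UMIs of a gene scaled to the same total of UMIs in every sum. The sums were compared with edgeR's quasi-likelihood test over the 3 lots, without pairing by lot. A fit with lot as a replicate block, which pairs the sums of a lot, was run beside it, and some counts of calls differed. The 9 genes of the rule were not tested. Of 14768 genes tested, 1675 were higher (11.3%) and 1193 lower (8.08%) in C1q cells at an adjusted p under 0.05, and the median log2 fold change over all of them was -0.07. The cells were chosen by their own counts, so this comparison describes what else was found in cells that carry C1q transcripts, and a difference between sets can reflect both more RNA per cell and more of the cells carrying it.

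All 12 macrophage markers were higher, with a median log2 fold change of 9.54, and 11 were called when any 1 lot was left out. Csf1r was at 396, 442 and 495 CPM in the C1q cells of lots 26, 29 and 30 and at 0.538, 0.413 and 0.789 CPM in the non-member cells, a log2 fold change of 9.55 ± 0.25 (SE, adjusted p = 1.05e-13). Mrc1 was at 620, 717 and 502 CPM against 0.883, 0.734 and 0.789 CPM (9.54 ± 0.20, adjusted p = 6.40e-16). The lots did not overlap between the sets for either gene, and the spread among the C1q sums was small beside the difference. Cx3cr1 was at 571, 569 and 560 CPM against 0.506, 0.161 and 0.327 CPM (10.69 ± 0.31, adjusted p = 3.41e-11). Cd68, a lysosomal membrane protein of macrophages, was at 182, 87.1 and 169 CPM against 2.36, 2.25 and 2.43 CPM (6.11 ± 0.19, adjusted p = 8.65e-14).

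**Figure D3:**
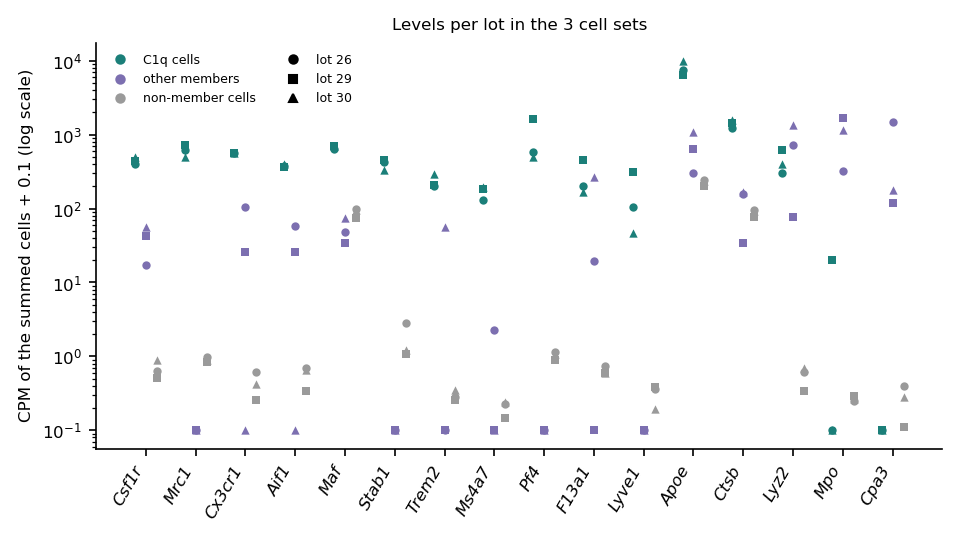
Level in CPM after adding 0.1 (y axis, log scale) of named genes (x axis) in the summed C1q cells, other members and non-member cells, with color for the set and shape for the lot. Csf1r lies at 396 to 495 CPM in C1q cells, at 17.3 to 55.7 CPM in other members and below 1 CPM in non-member cells, and Mpo and Cpa3 are highest in other members.

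The genes with the largest differences were also genes of macrophages. Fcrls, an Fc receptor-like gene known from microglia and fetal macrophages, was at 315, 254 and 317 CPM in C1q cells and near 0.1 CPM in non-member cells, a log2 fold change of 11.63 ± 0.22 (adjusted p = 2.38e-16). Ccl24, a chemokine that attracts eosinophils, was at 117, 409 and 174 CPM (11.52 ± 0.62, adjusted p = 9.34e-05). Ms4a6b, Clec4a2 and Ms4a6c followed at 11.49, 11.16 and 11.04. The Ms4a6 genes are close paralogs and only uniquely mapped reads were counted, so their separate levels are uncertain. These 5 genes had the largest log2 fold changes of 240 that were at 100 CPM or more in C1q cells, higher in every lot and called in the test.

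Transcription factors of the myeloid lineage were higher as a group, with 12 of 16 tested called higher and none lower (median 2.64). Spi1, which encodes PU.1, was at 210, 362 and 235 CPM against 0.281, 0.206 and 0.135 CPM (10.23 ± 0.27, adjusted p = 1.27e-12). Irf8, which acts with PU.1 in macrophages, was at 82.4, 161 and 129 CPM against 3.17, 2.71 and 2.86 CPM (5.28 ± 0.22, adjusted p = 4.88e-12). Spi1 was below 1 CPM in the non-member cells, whereas Maf and Runx1 were at clear levels in both sets. Maf, a regulator of tissue macrophages, was at 647, 710 and 705 CPM against 97.8, 73.3 and 94.2 CPM (2.95 ± 0.15, adjusted p = 7.91e-11). Runx1, needed for the first blood cells and present in pre-granulosa cells too, was at 156, 154 and 128 CPM against 74.0, 68.9 and 80.2 CPM (0.96 ± 0.15, adjusted p = 0.000107). Cebpe, a factor of granule-forming neutrophils, had no UMI in any C1q sum and did not pass the test.

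Receptors on the surface of myeloid cells were mostly higher. Of 14 tested, 11 were higher and none lower (median 6.64), among them the chemokine receptor Ccr1 (log2 fold change 10.52), the RNA sensor Tlr7 (10.11) and Csf2rb (8.29), a chain of the GM-CSF receptor. Of 7 ligands of these receptors that could be tested, 1 was called, against 2 higher and 2 lower with lot as a replicate block, with DESeq2 and without lot 26. It was Csf1 at 7.90, 6.70 and 58.7 CPM against 2.06, 1.55 and 2.13 CPM (3.85 ± 0.72, adjusted p = 0.00829), where lot 30 stood well above the other lots. In lot 30, 1 cell held 51.4% of the Csf1 UMIs of the C1q cells, and lot 29 had 1 UMI in all. Il34, the other ligand of Csf1r, and Cx3cl1, the ligand of Cx3cr1, had log2 fold changes of -1.13 (adjusted p = 0.42) and -2.53 (adjusted p = 0.084), and neither passed the test.

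Genes of tissue-resident and fetal macrophages were mostly higher too (11 of 13 tested, 1 lower, median 7.83). Stab1, a scavenger receptor, was at 425, 449 and 334 CPM against 2.71, 0.986 and 1.12 CPM (7.94 ± 0.50, adjusted p = 0.000164). Pf4 was at 575, 1621 and 495 CPM against 1.06, 0.803 and 0.974 CPM (9.77 ± 0.69, adjusted p = 0.000808). Pf4 is best known from platelets and is also made by fetal macrophages, and of the 3 platelet and megakaryocyte genes that could be tested none was called. The microglia gene P2ry12 was low but present at 42.9, 13.4 and 36.9 CPM against about 0.1 CPM (8.36 ± 0.44, adjusted p = 9.02e-11). Sall1, the defining transcription factor of microglia, was at 1.13, 0 and 0 CPM against 2.91, 2.76 and 2.52 CPM, and the difference did not pass the test (adjusted p = 0.157). Sparc, a matrix protein of microglia that gonadal cells make in quantity, was lower in C1q cells at 487, 388 and 329 CPM against 934, 1024 and 927 CPM (-1.26 ± 0.15, adjusted p = 6.40e-06).

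Several of these genes were detected in only some of the C1q cells, and a cell with no UMI of a gene may still express it. A UMI of Pf4 was found in 73.3% of C1q cells (55.4% after each cell was thinned to 3500 UMIs) and in 0.864% of non-member cells. F13a1 was found in 57.4% (37.6% thinned) against 0.638%, and Ccl24 in 50.5% (32.7% thinned) against 0.0763%. Few C1q cells held a UMI of Timd4 (9.90%, 2.97% thinned, against 0.101%), of the monocyte receptor Ccr2 (7.92%, 3.96% thinned, against 0.0173%) or of Cd163 (1.98%, 0% thinned, against 0.0104%). Lyve1, a hyaluronan receptor of perivascular macrophages, was found in 20%, 57.1% and 24.3% of the C1q cells of lots 26, 29 and 30, and in 8%, 50% and 10.8% after thinning, against 0.205% of all non-member cells. Its level was 106, 315 and 47.0 CPM, and 1 cell held 70.2%, 55.3% and 50% of the Lyve1 UMIs of the C1q cells of its lot. The Lyve1 call (9.17 ± 0.90, adjusted p = 0.00319) was lost without lot 26 (adjusted p = 0.0881). In lot 29, 1 cell held 90.2% of the Ccl24 UMIs of the C1q cells, while 1 cell held at most 24.3% of the Mrc1 UMIs of a lot's C1q cells.

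Engulfment, lysosomal and iron-handling genes were mostly higher in C1q cells. The engulfment list had 14 of 17 tested genes higher and 1 lower (median 1.91), the lysosomal list 16 of 20 higher and none lower (median 2.36), and the iron and heme list 10 of 11 higher and none lower (median 1.74). Ctsb, a lysosomal protease, was at 1215, 1453 and 1565 CPM against 94.3, 76.3 and 92.4 CPM (4.01 ± 0.16, adjusted p = 2.20e-12). Ctsd, another, was at 722, 931 and 1107 CPM against 107, 81.4 and 86.7 CPM (3.33 ± 0.18, adjusted p = 3.43e-10). Such proteases are made at some level by most cells, and the difference stood over a clear background. Ctss, which is restricted to immune cells, was instead at 288, 295 and 354 CPM against less than 1 CPM (10.69 ± 0.49, adjusted p = 9.78e-06). Cd63 had a log2 fold change of -0.04 and did not pass the test.

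Mertk, a receptor that binds dying cells through bridging proteins, was higher in the C1q cells at 30.5, 53.6 and 38.6 CPM against 12.8, 9.67 and 13.6 CPM (1.60 ± 0.26, adjusted p = 0.000184). Its bridging ligand Gas6 was higher at 172, 194 and 213 CPM against 112, 94.7 and 96.2 CPM (0.93 ± 0.15, adjusted p = 0.000194). A second bridging protein went the other way. Mfge8 was at 127, 201 and 97.3 CPM in C1q cells and at 295, 244 and 297 CPM in non-member cells (-1.12 ± 0.19, adjusted p = 0.000287). Hmox1, which breaks down heme, was at 206, 67.0 and 185 CPM against 29.5, 34.3 and 34.2 CPM (2.41 ± 0.24, adjusted p = 2.50e-05), and Slc40a1, the iron exporter ferroportin, was at 84.7, 174 and 80.5 CPM against 9.40, 6.53 and 6.63 CPM (3.68 ± 0.25, adjusted p = 7.16e-08). The ferritin light chain Ftl1 rose by 1.82 and the heavy chain Fth1 by 0.95 on the log2 scale.

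Of 10 complement genes tested besides C1q, 7 were higher and 1 lower (median 3.26). C3ar1, the receptor for the complement fragment C3a, was at 167, 201 and 232 CPM against less than 1 CPM (10.28 ± 0.23, adjusted p = 9.49e-16). C1ra, a protease that binds C1q, had no UMI in any C1q sum and was at 2.49, 2.16 and 2.11 CPM in non-member cells, at least 1.23-fold lower (adjusted p = 0.0496). That call was lost with lot as a replicate block (adjusted p = 0.0720) and without any 1 of the lots.

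Of 18 chemokine and cytokine genes tested, 16 were higher and none lower (median 8.96). Ccl4 was at 146, 402 and 485 CPM against less than 1 CPM (10.43 ± 0.81, adjusted p = 0.00145), and Cxcl2, which attracts neutrophils, at 233, 415 and 748 CPM against less than 1 CPM (10.21 ± 1.13, adjusted p = 0.00614). Both were lowest in lot 26 and highest in lot 30, though 1 cell held 61.7% of the Ccl4 UMIs of the C1q cells of lot 29. The Cxcl2 call was lost without lot 26 (adjusted p = 0.0965). Ccl2, which attracts monocytes, was highest in lot 26, at 86.9, 33.5 and 26.9 CPM (8.73 ± 0.47, adjusted p = 3.54e-10). Its level in lot 29 came from 5 UMIs of 1 cell. Tgfb1 was at 107, 174 and 114 CPM against 10.3, 10.3 and 7.17 CPM (3.70 ± 0.21, adjusted p = 1.59e-09). None of 18 immediate early and heat shock genes was called, with Fos at 832, 1005 and 1706 CPM against 730, 1168 and 2047 CPM, so its lowest level was in lot 26 in both sets. With lot as a replicate block, 5 of those genes were higher and 5 lower, and without lot 30, 4 were higher and 4 lower.

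Growth factors and matrix genes were mixed, with 7 of 15 tested higher and 4 lower (median 0.34, and 2 lower without lot 30 or with called doublets removed). Apoe, a lipid carrier, was at 7459, 6483 and 9911 CPM against 242, 202 and 238 CPM (5.13 ± 0.19, adjusted p = 1.69e-10). Igf1, a growth factor for many tissues, was at 169, 214 and 121 CPM against 72.8, 53.9 and 68.4 CPM (1.29 ± 0.17, adjusted p = 2.52e-05). Vegfa, which drives vessel growth, was lower at 19.2, 20.1 and 20.1 CPM against 50.6, 46.4 and 69.1 CPM (-1.49 ± 0.27, adjusted p = 0.000614). All 6 genes of the NADPH oxidase, the enzyme that makes superoxide in phagocytes, were higher (median 6.80), as were 17 of 18 actin and migration genes (median 6.96) and 8 of 12 interferon response genes (median 2.07), with none lower in these lists. With lot as a replicate block, 1 interferon response gene was lower. In the C1q cells of lot 29, 6 of the 13 genes of that list had no UMI. In lot 30, 1 cell held 88.6% of the Isg15 UMIs of the C1q cells. The Rsad2 call was lost without lot 26 and without lot 29.

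**Figure D4:**
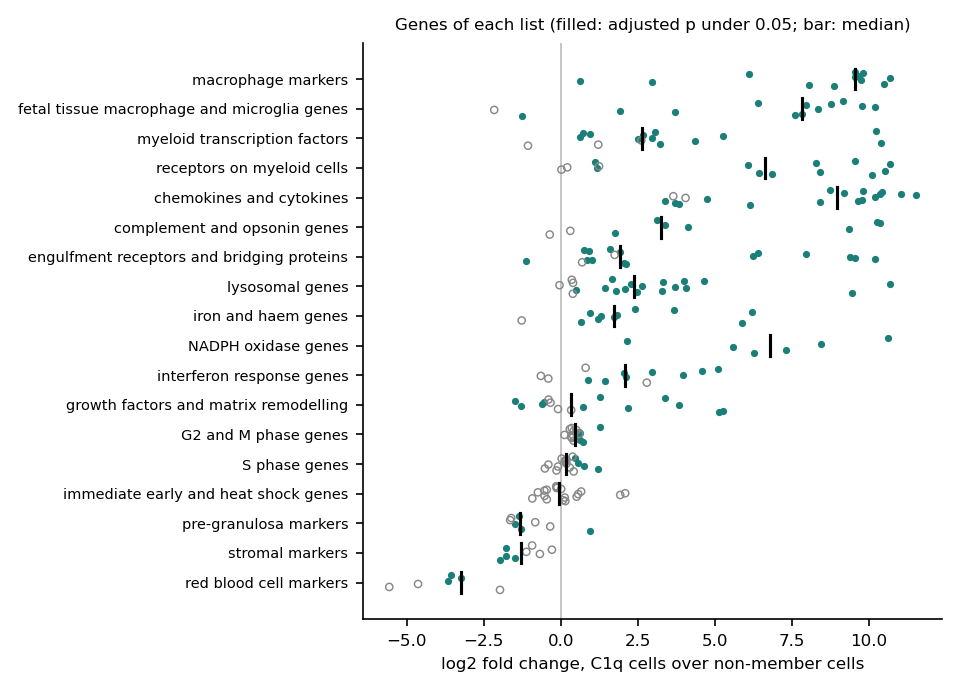
Log2 fold change of C1q cells over non-member cells (x axis) for the genes of 18 lists (y axis), with 1 point per tested gene, filled where the adjusted p was under 0.05, and a bar at each list's median. The 5 genes with no UMI in any C1q sum are not drawn but enter the medians at their bound. Lists of macrophage function lie to the right of 0, while red blood cell, stromal and pre-granulosa markers lie mostly to the left.

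Proliferation genes were seen in many C1q cells. A UMI of Mki67 or Top2a, both made in dividing cells, was found in 65 of 101 C1q cells, or 60%, 64.3% and 70.3% by lot. Mki67 alone was found in 48%, 64.3% and 56.8% of C1q cells and in 28.7%, 25.3% and 25.4% of non-member cells. Thinned to 3500 UMIs per cell, the shares were 34%, 57.1% and 35.1% against 15.9%, 13.4% and 13.6%, higher in C1q cells in each lot. The Mki67 level was 236, 315 and 228 CPM against 119, 94.7 and 92.2 CPM (1.29 ± 0.16, adjusted p = 6.79e-06), whereas Top2a at 315, 402 and 285 CPM against 265, 259 and 232 CPM did not pass the test (0.36 ± 0.15, adjusted p = 0.108). Of 16 G2 and M phase genes, 6 were higher, against 12 with lot as a replicate block and 1 without lot 30, and that gene was Mki67. Of 16 S phase genes, 4 were higher, against 1 without lot 26, 2 without lot 29 and 1 without lot 30.

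Markers of other cells of the ovary were also measured in the C1q sums. The 8 pre-granulosa markers summed to 811, 388 and 1023 CPM in C1q cells and to 1779, 1749 and 2006 CPM in non-member cells, with 3 genes lower (5 with the block) and Runx1 higher. Wnt4, which directs ovary development, was at 127, 67.0 and 176 CPM against 327, 319 and 387 CPM (-1.35 ± 0.22, adjusted p = 0.000719). The 8 stromal markers summed to 751, 482 and 206 CPM against 1038, 919 and 932 CPM, with 4 lower (7 without lot 26), and 3 of 7 surface epithelial markers were lower (6 with the block, and 1 without lot 29). The 8 germ cell markers summed to 612, 375 and 290 CPM against 455, 251 and 233 CPM with none called (2 higher with the block, 1 without lot 26 and 1 without lot 30). Only 30 of 101 C1q cells held a UMI of these germ cell markers. In lot 26, 2 cells held 173 and 120 of their UMIs, and neither was called a doublet. In lot 29, 1 cell held all 17 Dazl UMIs of the C1q cells. The part of all these ovarian markers in the results was not tested beyond the following. In 23 of 101 C1q cells (12, 3 and 8 by lot) the UMIs of the ovarian lists outnumbered those of the macrophage markers, and 14 of these were called doublets. With called doublets removed, 3159 genes were called in place of 2868, and the macrophage markers were again all higher. Red blood cell markers summed to 141, 174 and 107 CPM in C1q cells and to 1319, 3863 and 1353 CPM in non-member cells. Hbb-bs, an adult beta globin, was at 39.5, 20.1 and 38.6 CPM against 416, 451 and 512 CPM (-3.65 ± 0.21, adjusted p = 2.23e-10). It had the lowest log2 fold change of the genes at 100 CPM or more in the non-member cells of every lot, and the near-identical globin genes may share reads, so its separate level is uncertain.

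The 4 granule-gene cells held high counts of the genes that chose them, given here as a description. Their S100a8 counts were 1653 and 2993 UMIs in lot 26 and 4218 and 2436 in lot 30, in cells of 9875, 15335, 32052 and 13767 UMIs in all. Camp was at 275, 387, 1085 and 458 UMIs, Ngp at 248, 309, 363 and 428, Ltf at 81, 89, 117 and 78 and Lcn2 at 119, 187, 274 and 175 UMIs in the same order. Each cell thus held many copies of several genes of the later granules. Cebpe, which switches these genes on, had 4, 10, 24 and 12 UMIs. The genes of the mature neutrophil list summed to 137, 78, 162 and 78 UMIs in the 4 cells. Most of these UMIs were those of Wfdc21, with 54 to 135 per cell. Retnlg, a secreted protein of neutrophils, had 26, 8, 3 and 9 UMIs and Ly6g, a surface protein of mature neutrophils, 16, 1, 0 and 0. Csf3r, the G-CSF receptor, was at 0 in all 4, and Cxcr2, the receptor by which mature neutrophils follow chemokines, had 0, 0, 3 and 2 UMIs. The list was thus found in all 4 cells mainly through Wfdc21, while Csf3r was absent and Ly6g and Cxcr2 were each found in 2 cells. Csf1r, Mrc1, Cx3cr1, Ccr2, F13a1 and the 3 C1q genes were at 0 as well. The deepest of the 4 cells also held 25 UMIs of the primary granule gene Prtn3, 2 of Mpo, 1 of Elane and 18 of Mki67.

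C1q cells and granule-gene cells were compared in 3 sums against 2, each of the latter from 2 cells, so the result is an account of these few cells. Of 2715 genes tested, 149 were higher (5.49%) and 175 lower (6.45%) in C1q cells, and the median log2 fold change of all tested genes was 0.58. With lot as a replicate block in lots 26 and 30, 156 genes were called (53 higher and 103 lower). This comparison and those with non-member cells and other members use the same C1q sums. Genes of the secondary and tertiary granules are given as levels and without a count, since most of those tested were near 0 in C1q cells and entered the test through the granule-gene sums. Ltf, the iron-binding lactoferrin, was at 1.13, 0 and 0 CPM in C1q cells and at 6743 and 4256 CPM in granule-gene cells. Lcn2, which binds bacterial siderophores, was at 1.13, 0 and 0 CPM against 12138 and 9799 CPM. Both sets had lysozyme at clear levels. Lyz2 was at 299, 623 and 398 CPM in C1q cells and at 17493 and 11240 CPM in granule-gene cells (-6.10 ± 0.59, adjusted p = 4.33e-11).

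The largest differences of all were those of stefin A genes, small inhibitors of cysteine proteases. Stfa3 had no UMI in any C1q sum against 25664 and 13750 CPM in granule-gene cells, at least 9774-fold lower, and Stfa2l1, BC117090 and Stfa2 were at least 8151-fold, 8236-fold and 5312-fold lower. BC100530 took 101309 and 59255 CPM of the granule-gene sums, with 1.13, 0 and 1.68 CPM in C1q cells. These genes too entered the test through the granule-gene sums, so they are given as levels. These genes are near-identical copies of each other, so reads could be lost or split among them, and the level of each is uncertain. Wfdc21, a secreted antiprotease-like protein, was at least 2556-fold lower in C1q cells, and Cebpe at least 383-fold, at 0 against 555 and 786 CPM.

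All 6 NADPH oxidase genes, which were higher in C1q cells than in non-member cells, were lower in C1q cells than in granule-gene cells (median -3.13, and 4 lower with the block). Cybb, the catalytic subunit, was at 146, 255 and 141 CPM against 1269 and 1179 CPM (-3.85 ± 0.33, adjusted p = 2.31e-12). Actin and migration genes could enter the test through the granule-gene sums alone, so no count of calls is given for that list. Of its genes, Coro1a was at 385, 670 and 448 CPM against 912 and 1135 CPM (-2.09 ± 0.35, adjusted p = 1.73e-05). Itgam, the CD11b integrin shared by macrophages and neutrophils, was at 39.5, 67.0 and 38.6 CPM against 278 and 196 CPM. It entered the test through the granule-gene sums and is given as a level. Of the 12 macrophage markers, 10 had no UMI in the granule-gene sums and entered the test through the C1q sums, so no count of calls is given for this list. Maf, Mrc1, Cx3cr1 and Csf1r had no UMI in the granule-gene cells and were at least 15.95-fold, 13.9-fold, 13.4-fold and 10.3-fold higher in C1q cells. The lysosomal list summed to 6788, 7829 and 9178 CPM in C1q cells and to 1111 and 1637 CPM in granule-gene cells. Of its 19 tested genes, 3 had no UMI in the granule-gene sums. Genes of this list could enter the test through the C1q sums alone, so no count of calls is given for it either. Ctsb was at 0 and 21.8 CPM in granule-gene cells (5.63 ± 0.85, adjusted p = 2.48e-06), and Apoe at 0 and 21.8 CPM as well (8.14 ± 0.99, adjusted p = 2.16e-08). None of 14 tested G2 and M phase genes was called, and 6 were lower without lot 26.

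The other members were not 1 kind of cell. Of 33, 15 held at least 10 UMIs of the primary granule genes (8, 4 and 3 by lot), 12 held at least 15 UMIs of the mast cell and basophil genes (10, 1 and 1), and 6 held both. A further 4 cells held at least 25 UMIs of Lyz2, all with a UMI of Ccr2, and 1 of these was also among the primary granule cells. The remaining 9 met none of these minimums, which were set after the values were seen and only describe the cells, and 5 of the 9 had at most 2 UMIs of both Tyrobp and Fcer1g. The label of macrophages and neutrophils therefore did not cover this set.

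Most of the other members with mast cell genes were in lot 26, which also held 22 of the 33 cells. Cpa3, which encodes a protease of mast cells and basophils, was found in 18 of 33 other members (13, 2 and 3 by lot), and in none of the C1q cells. Cma1, a mast cell chymase, was found in 6 cells and Mcpt8, a basophil protease, in 5, all in lot 26. The 5 cells with Mcpt8 all held Mpo, while 5 of the 6 with Cma1 did not. Of the 5 cells with Mcpt8, 3 were called doublets, with 2, 4 and 12 UMIs of it. The cell with the most Cpa3 had 309 UMIs of it, with 60 of Cma1, 67 of Prss34, 37 of Hdc, the enzyme that makes histamine, and 13 of Kit. Another cell of lot 26 had 64 UMIs of Mcpt8, 40 of Cpa3 and 19 of Mpo. Mpo was found in 16 cells (8, 5 and 3 by lot), and 12 of them also held Cpa3.

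Primary granule genes were found at high counts in all 3 lots. The highest counts of Mpo, the myeloperoxidase, were 99 UMIs in a cell of lot 30 and 93 in a cell of lot 29. The cell of lot 30 had 45779 UMIs in all, with 108 of Prtn3, 22 of Elane, 11 of Ctsg, 146 of Lyz2, 7 of S100a8, 22 of Ly6c2, 29 of F13a1, 13 of Ccr2 and 35 of Mki67. It thus held genes of primary granules, of monocytes and of dividing cells at once. In lot 26, a cell with 190 UMIs of Lyz2 and a cell with 113 UMIs of Lyz2, 12 of Ccr2, 44 of Plac8 and 10 of S100a8 held monocyte genes. Another cell of lot 26 held 33 UMIs of Cd74, which chaperones MHC class II. At least 40 UMIs of the ovarian lists were found in 8 of the 33 cells, and 4 other members were called doublets. A set of 3 such cells of lot 26, with 47868, 46323 and 66185 UMIs, were called doublets and held Mpo, Mcpt8 and the stefin A gene BC100530 at 30, 19 and 60 UMIs, while BC100530 was at 0 in all other members besides.

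**Figure D5:**
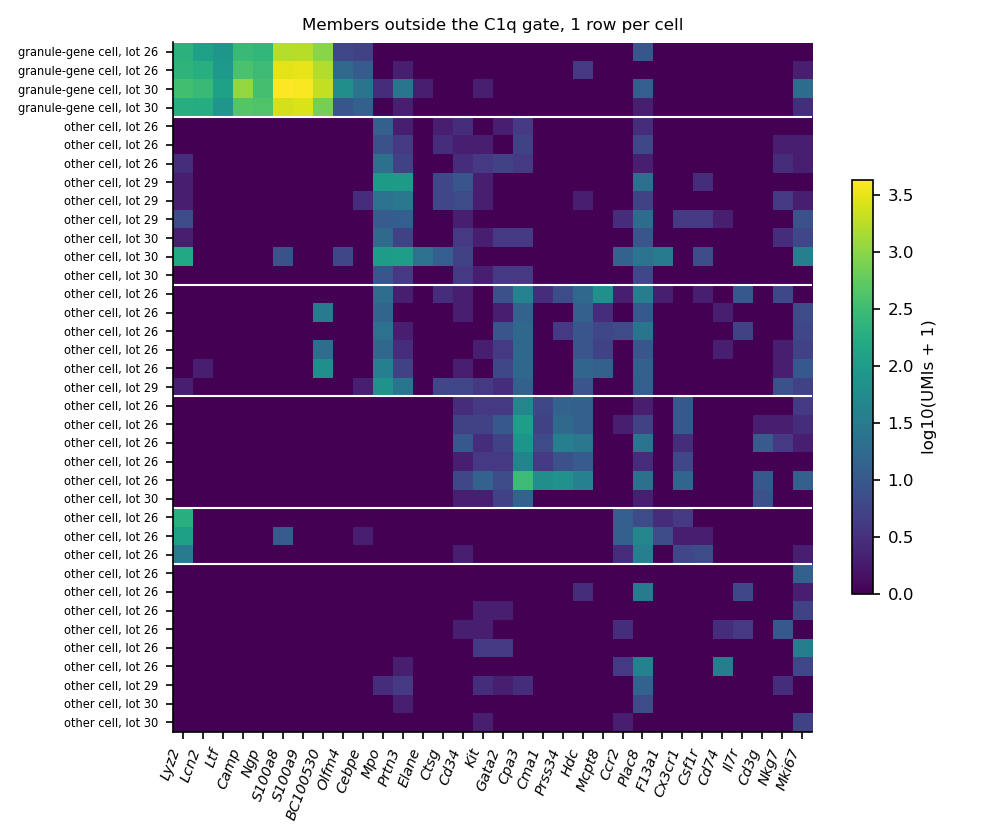
Color gives log10 of UMIs plus 1 of named genes (x axis) in the 4 granule-gene cells and the 33 other members (1 row per cell, y axis), where white lines set apart the granule-gene cells, the other members with primary granule genes only, with both lists, with mast cell genes only, with Lyz2 and with none of these. Mpo and Prtn3 mark cells of all 3 lots, while Cma1 and Mcpt8 appear, among the cells drawn, in lot 26 alone.

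Against these other members, the C1q cells differed in fewer genes. Of 4897 genes tested, 189 were higher (3.86%) and 62 lower (1.27%) in C1q cells (median -0.01), and with lot as a replicate block 265 were higher and 166 lower. The count of 251 fell to 145 without lot 26 and to 86 without lot 30. The 12 macrophage markers summed to 3349, 3637 and 3508 CPM in C1q cells and to 310, 240 and 437 CPM in other members. They could enter the test through the C1q sums alone, so no count of calls is given for this list. The lysosomal list summed to 6788, 7829 and 9178 CPM in C1q cells and to 3204, 1963 and 3037 CPM in other members. None of its 19 tested genes was at 0 in the other members. Genes of this list could still enter the test through the C1q sums alone, so no count of calls is given for it either. Csf1r was at 17.3, 42.9 and 55.7 CPM in other members, a log2 fold change of 3.79 ± 0.37 (adjusted p = 1.45e-05), so it was not absent from them. Mrc1, Stab1 and Pf4 had no UMI in the other members of any lot and entered the test through the C1q sums. For these genes, C1q cells were at least 134-fold, 90.0-fold and 147-fold higher. Fcrls and Ccl24 were at least 70.9-fold and 37.7-fold higher. Cx3cr1 was at 104, 25.7 and 0 CPM in other members (3.15 ± 0.59, adjusted p = 0.0215), a call that was lost with the block (adjusted p = 0.107) and without lot 29 (adjusted p = 0.197). Apoe was at 299, 643 and 1096 CPM (3.59 ± 0.51, adjusted p = 0.0205), also lost with the block (adjusted p = 0.0541) and without lot 29 (adjusted p = 0.192).

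Mpo was at 0, 20.1 and 0 CPM in C1q cells and at 319, 1680 and 1152 CPM in other members (-8.82 ± 1.35, adjusted p = 0.0264), a call that was lost without lot 29 (adjusted p = 0.103). Ptprcap, a partner of the pan-leukocyte phosphatase CD45, was at 1.13, 0 and 0 CPM against 195, 257 and 242 CPM (-7.96 ± 0.52, adjusted p = 7.62e-07). Mpo and Ptprcap were at or near 0 in most C1q sums and entered the test through the sums of the other members. Plac8, found in monocytes and blood progenitors, was at 14.7, 114 and 25.2 CPM against 650, 566 and 399 CPM (-4.01 ± 0.66, adjusted p = 0.0137), a call lost with the block (adjusted p = 0.0641) and without lot 30 (adjusted p = 0.0625). All 17 Plac8 UMIs of the C1q cells of lot 29 were those of 1 cell. Plac8 too entered the test through the sums of the other members. Srgn, the core protein of granule proteoglycans, was at 74.5, 127 and 151 CPM against 999, 737 and 724 CPM (-2.88 ± 0.30, adjusted p = 3.00e-05). Cpa3 had no UMI in any C1q sum and was at 1489, 120 and 177 CPM in other members, from 687, 14 and 19 UMIs, of which 309 in lot 26 were those of 1 cell. It did not pass the test (adjusted p = 0.288), though it did with the block (adjusted p = 1.56e-15). None of 16 tested G2 and M phase genes was called.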

How the data were processed

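Single-cell RNA of 3 lots of one preparation was analyzed, 1 library per lot. The values are raw UMI counts per gene and barcode deposited by the authors, who extracted barcodes with UMI-tools, aligned uniquely mapped reads to GRCm38 with STAR 2.7, assigned them with featureCounts 2.0.1 and used Seurat downstream. The sources used here do not state whether the counting used strand, so genes overlapped on the opposite strand, such as Csf1r, Cx3cr1, Maf, Ctsb, Stab1 and Mpo, may include reads of their partners.

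Members and gene lists were chosen with earlier results of these data known. UMIs were summed per set and lot and compared with edgeR 4.0.16 (quasi-likelihood test, TMM, filterByExpr, R 4.3.3), with Benjamini-Hochberg adjustment over all genes tested and a threshold of 0.05, and the code was checked on simulated data. The standard error (SE) of a log2 fold change was its absolute value over the root of F. The lots are separate pools of embryos, cells were not treated as replicates, and the p-values measure the spread between lots. For granule-gene cells, with 2 sums of 2 cells each, that spread also holds differences between single cells. DESeq2 1.42.0 was an alternative, and Scrublet (scanpy 1.11.5, 8% expected doublets, run per lot) called doublets, which were kept except where stated. A group with no UMI was set to a floor of 3 UMIs over the group for a fold of "at least" a size. Total UMIs per lot are given above, and genes with few UMIs are measured with little precision.

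Sets of the same lot come from 1 pool and share a capture, and their deviations from the set means correlated within each lot (r = 0.29, 0.24 and 0.41 for C1q and non-member cells over 3291 genes, and 0.26, 0.16 and 0.13 for C1q cells and other members over 3186), so lot pairs the sums and a fit with lot as a replicate block was run. Named genes were at 100 CPM or more in every lot of the higher set, passed the threshold, differed the same way in every lot and had the largest log2 fold changes (5 per direction, or 10 against granule-gene cells), beside genes of the 34 lists with the largest and smallest changes, defining markers and genes at 0. Other list genes and single cells were picked after their values were seen. A sum was to need 3 cells. Granule-gene cells had 2, 0 and 2, so this minimum was waived for their comparison with C1q cells after the cells were counted, and their comparison with non-member cells was not run. The comparison with other members was added at the same stage. Promoter windows of the 9 genes of the rule were looked for in the RefSeq table, and 7 were found. The windows of Cpa3 and Mpo were looked up besides. Those of C1qb, S100a9 and Cpa3 lay outside the annotated genes and are shown. The promoters of C1qa and Tyrobp were not used here. Results of some genes are not reported here.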

Additional observations from a re-analysis of the deposited data

How the results depend on the processing

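Alternatives were other size factors (RLE), no filter on low counts, DESeq2, lot as a replicate block, leaving out each lot, removing called doublets, other UMI minimums, cells thinned to 2000 UMIs and a fit that also held the non-member sums. Against other members (251 genes called), 537 were called with no filter on low counts, 431 with lot as a replicate block, 72 with thinned cells, where 526 genes could be tested, and 404 with the non-member sums in the fit. Leaving out 1 lot gave 86 to 178. Against granule-gene cells (324), the counts were 576, 156 (lots 26 and 30), 53 of 426 tested and 805 in the same order, and leaving out 1 lot gave 238 to 389, where the lone granule-gene sum without lot 26 or 30 was assumed to vary like the C1q sums. The share of these calls that were higher in C1q cells was 46.0%, against 64.6% with no filter, 34.0% with the block, 67.6% without lot 30 and 79.3% with the non-member sums, and for other members 75.3%, against 63.9% with no filter and 61.5% with the block. Against non-member cells (2868), all 8 alternatives gave 2099 to 3159, within 1.5 times. DESeq2 called 3071, 180 and 316 genes in the 3 comparisons. Of the named genes, 80 of 80 alternative values against non-member cells kept their direction and passed the threshold, as did 113 of 117 against other members and 228 of 238 against granule-gene cells, and none reversed. Of the latter, 9 values were lost with thinned cells, for which few genes could be tested, and Stab1 with the non-member sums. Mean shares of members over lots ranged from 0.321% without lot 26 to 0.591% without lot 29. C1q cells made up 70.6% to 78.0% of members under every alternative run, and granule-gene cells 1.35% to 3.57%. The planned change of cells in both gates could not be run, since there were none, and the planned comparison of granule-gene cells with non-member cells was not run. With 14 C1q cells in lot 29, 4 granule-gene cells and 33 other members in all, the number of cells limits what could be measured.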
